A study of Mus musculus with 6 samples.

Results

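The amino acid stress response genes examined here are 10 genes, chosen by name with earlier results of these data known. Of them, 5 make serine, glycine or asparagine (Asns, Psat1, Phgdh, Psph and Shmt2) and 5 are regulators of the response (Ddit3, Trib3, Chac1, Atf4 and Ddit4). They are 10 of the 12452 genes with a tested probe set on Affymetrix Mouse Genome 430 2.0 arrays. All 22 probe sets annotated to one of them alone were read, and 21 passed the filter on dim probe sets. The arrays measured total RNA of embryoid bodies, clumps of differentiating mouse embryonic stem cells grown in suspension. The cells were of the Hoxb4i line, in which doxycycline switches on an integrated HOXB4 cassette. Induced embryoid bodies (3 arrays) had received 2 µg/ml doxycycline for 48 hours from day 4, and uninduced embryoid bodies (3 arrays) had not; both groups carried the cassette and were harvested on day 6. The labels name replicas A, B and C, called experiments here, and each supplied 1 array of each group. No array shows doxycycline without the cassette, so HOXB4 and doxycycline itself cannot be told apart. Both groups grew in a medium with 15% serum, 2 mM glutamine, 4.5 mM monothioglycerol and 50 µg/ml ascorbic acid.

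When amino acids run short or unfolded proteins pile up, kinases phosphorylate the translation factor eIF2α. General translation then slows while the mRNA of ATF4, a bZIP transcription factor, is translated more. ATF4 pairs with C/EBP-family proteins on composite sites and raises genes for amino acid synthesis, uptake and tRNA charging, as well as regulators such as CHOP (Ddit3) and TRIB3. Because ATF4 is controlled largely in translation, its transcript on an array is not a measure of its protein. Serine synthesis also feeds glycine and one-carbon units to nucleotide synthesis, which growing embryonic cells use heavily.

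Promoter windows of the 10 genes, 250 bases before to 50 bases after the annotated start, were taken from RefSeq on GRCm38.p6, and 11 windows matched because Psat1 has 2. They are shown for the 4 genes whose window holds letters of the composite ATF and C/EBP element. The core TGATGNAA, searched on both strands, occurred in the windows of 3 of the 10 genes (Asns, Trib3 and Chac1) and in 3.97% of all 32851 windows of 300 bases. The related string TGNNGCAAT, chosen after these windows had been read and able to overlap the first, occurred in 3 genes (Psat1, Trib3 and Chac1) and in 2.12% of windows. Matches are in capitals; the windows run 5′ to 3′ along the gene and lie at chr6:7693160-7693459, minus strand (Asns), chr19:15925010-15925309, minus strand (Psat1), chr2:152344011-152344310, minus strand (Trib3) and chr2:119350992-119351291, plus strand (Chac1).
Asns: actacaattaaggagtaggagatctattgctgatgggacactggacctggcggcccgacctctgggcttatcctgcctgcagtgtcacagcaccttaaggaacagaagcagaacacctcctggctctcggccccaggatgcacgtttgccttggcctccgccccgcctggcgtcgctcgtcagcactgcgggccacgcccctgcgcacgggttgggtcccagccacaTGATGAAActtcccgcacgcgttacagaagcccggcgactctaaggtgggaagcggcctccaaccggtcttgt
Psat1: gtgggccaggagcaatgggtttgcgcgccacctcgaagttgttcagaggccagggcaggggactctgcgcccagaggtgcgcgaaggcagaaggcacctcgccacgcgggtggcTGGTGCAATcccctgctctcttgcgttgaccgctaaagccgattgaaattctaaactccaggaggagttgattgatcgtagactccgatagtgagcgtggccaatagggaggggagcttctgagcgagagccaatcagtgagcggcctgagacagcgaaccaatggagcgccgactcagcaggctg
Trib3: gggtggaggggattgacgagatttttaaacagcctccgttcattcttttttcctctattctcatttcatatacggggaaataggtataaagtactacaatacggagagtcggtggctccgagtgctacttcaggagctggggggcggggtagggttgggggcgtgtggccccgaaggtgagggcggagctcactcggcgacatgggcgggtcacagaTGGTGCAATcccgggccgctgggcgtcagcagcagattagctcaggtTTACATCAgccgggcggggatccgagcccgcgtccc
Chac1: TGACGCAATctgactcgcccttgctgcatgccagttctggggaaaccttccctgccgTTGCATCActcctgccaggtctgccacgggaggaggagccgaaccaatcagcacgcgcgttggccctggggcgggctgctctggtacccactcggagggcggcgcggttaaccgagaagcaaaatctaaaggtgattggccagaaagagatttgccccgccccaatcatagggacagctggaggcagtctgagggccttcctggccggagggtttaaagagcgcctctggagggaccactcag

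Counted from 1 at the 5′ end of each window, the match in Asns begins at base 228 and that in Psat1 at base 115. Trib3 has matches at bases 218 and 265, and Chac1 at bases 1 and 58. A match is a string of letters, not a measured binding site. The windows of Phgdh, Psph, Shmt2, Ddit3, Atf4 and Ddit4 hold neither string, which says nothing about sites elsewhere.

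Some facts of the arrays touch the results. The authors' signals had been scaled to a common trimmed mean, and with 6 arrays precision is limited by their number. Hoxb4 signals on probe set 1460379_at were 151 and 27.6 in C, 261 and 253 in B and 136 and 78.2 in A, induced first and uninduced second, a higher induced value in each experiment. The second Hoxb4 probe set, 1451761_at, read 176 and 114 in C, 129.5 and 119.8 in B and 116 and 46.5 in A, again higher on each induced array, and neither passed the test (limma, adjusted p = 1). The uninduced array of A stood apart: its ratio of 3′ to 5′ control signal for Actb was 2.88, against 1.26 to 1.48 on the other 5 arrays. The experiments also differed in cell-type markers. The summed signal of 8 neural markers was 6734 and 7522 in C (induced, then uninduced), 292 and 460 in B and 4408 and 6658 in A. For 8 mesenchyme markers the sums were 5757 and 5821 in C, 34879 and 37860 in B and 5090 and 7627 in A, and for 8 endothelial markers 444 and 964 in C, 6538 and 6301 in B and 1692 and 652 in A. The lowest value of any marker on any array was 1.5 for the neural marker Dcx, 5.20 for the endothelial marker Tie1 and 80.9 for the mesenchyme marker Col1a1. In such bulk samples, fewer cells of a type and less RNA per cell cannot be told apart.

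All calls among the 10 genes lay between experiments. In experiment C the regulators Trib3 and Ddit3 were lower than in B while the serine enzyme gene Phgdh was higher. In limma's F test over the 3 experiments, 4 of the 10 genes passed the threshold (adjusted p under 0.05): Phgdh, Ddit3, Trib3 and Chac1, against 14.0% of all tested genes. Between C and B, 1 of the 10 was higher, against 5.78% of tested genes, and 2 were lower, against 6.94%. Between C and A, 2 were lower, against 4.64%, and 0 higher, against 2.77%. Between B and A, 2 were lower, against 2.37%, and 0 higher, against 2.76%. Since the 10 genes were chosen with earlier results of these data known, these counts are no test of them as a set. These tests use the 2 arrays of an experiment as its replicates, with doxycycline as an additive term. Each gene is given on its tested probe set of highest mean signal, with signals as deposited (linear, MAS5). The log2 differences are of signal plus an offset of 18.8.

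**Figure D1:**
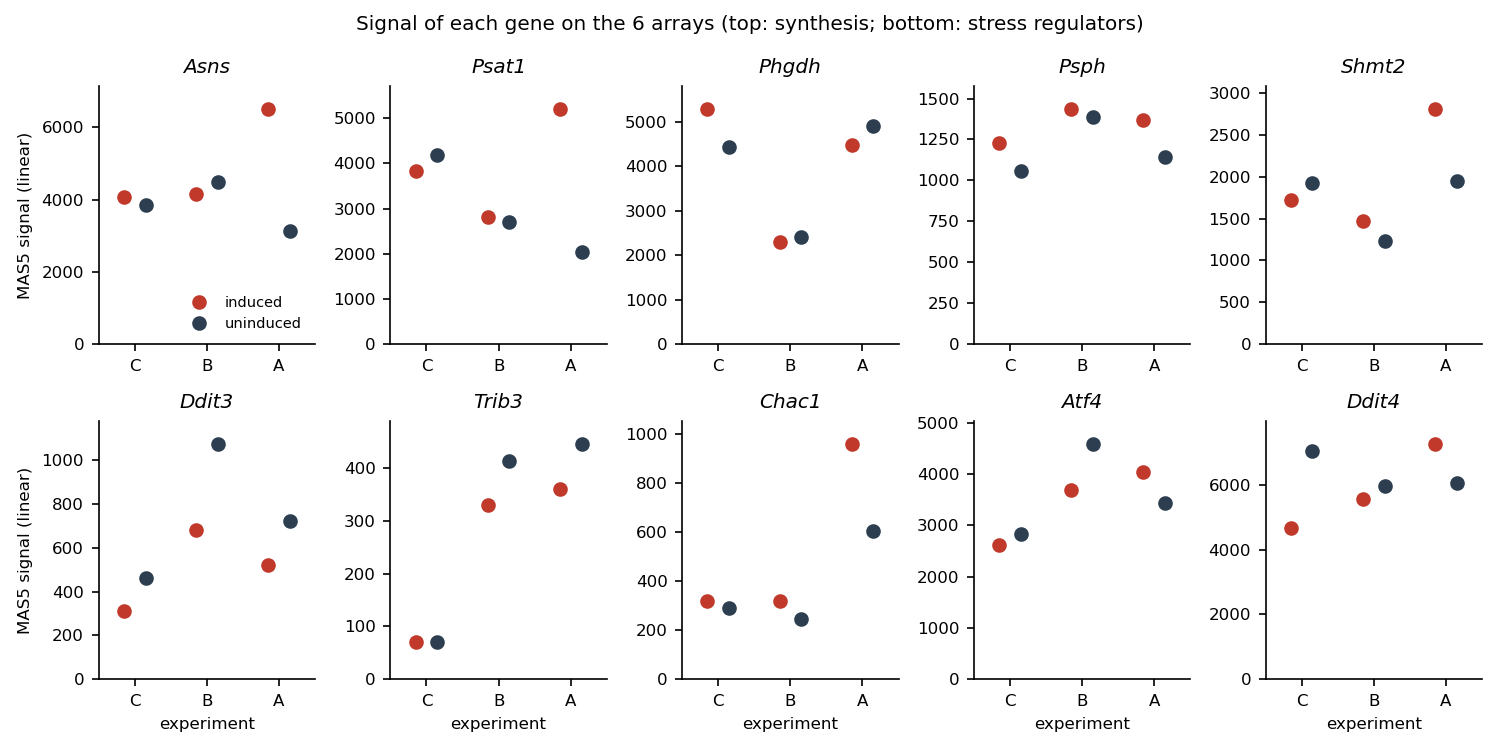
MAS5 signal (linear axis from 0) of the 10 genes on the 6 arrays, by experiment C, B and A, with induced arrays in red left of uninduced arrays in dark blue; the top row holds the synthesis genes and the bottom row the regulators. Trib3 lies at 70.2 and 69.5 in C and between 330.0 and 446 elsewhere, and Phgdh is lowest on both arrays of B.

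Among the regulators, Trib3 encodes a pseudokinase that binds ATF4 and damps its activity. On 1456225_x_at its signal was 70.2 induced and 69.5 uninduced in C, against 330.0 and 413 in B and 361 and 446 in A. Both C arrays lay below all 4 others, and the difference was -2.13 ± 0.29 (SE) for C minus B (n = 2 arrays each; limma, adjusted p = 0.00324) and -2.24 ± 0.29 (SE) for C minus A (limma, adjusted p = 0.00815). These contrasts share the arrays of C. The second probe set, 1426065_a_at, had 99.4 and 135 in C, 232 and 279 in B and 365 and 244 in A. It was again lowest on both C arrays, with -1.02 for C minus B (limma, adjusted p = 0.107). C minus A was -1.24 on it (limma, adjusted p = 0.0638), so neither difference passed there.

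Ddit3 encodes CHOP, the bZIP factor that links prolonged stress to cell death. It read 313 induced and 461 uninduced in C, against 682 and 1074 in B and 522 and 724 in A. Both C arrays were below the other 4, and C minus B was -1.13 ± 0.22 (SE) (n = 2 arrays each; limma, adjusted p = 0.0176). C minus A was -0.67 (limma, adjusted p = 0.104). A dimmer Ddit3 probe set, 1443897_at, had 20.8 and 40.7 in C and 15.8 and 80.2 in B but 213 and 171 in A, and its mean passed the filter only through the A arrays. Its order of experiments was not that of the brighter probe set.

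Atf4, the transcription factor at the head of the response, had its lowest signals in C on both tested probe sets. On 1448135_at the signals were 2617 and 2832 in C, 3688 and 4584 in B and 4043 and 3437 in A, and C minus B was -0.59 ± 0.18 (SE), short of the threshold (limma, adjusted p = 0.089). On 1438992_x_at they were 1013 and 936 in C, 1416 and 1425 in B and 1952 and 2511 in A, and C minus A was -1.17 ± 0.20 (SE) (limma, adjusted p = 0.0208). The C arrays lay below all others on both probe sets. The remaining Atf4 probe set, 1439258_at, stayed at 4.70 to 15.9 and was not tested.

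Chac1 followed another order. It encodes a γ-glutamylcyclotransferase that degrades glutathione and is induced through ATF4 and CHOP. The signals were 316 and 288 in C, 319 and 244 in B and 957 and 602 in A. Both A arrays were above the other 4, with -1.38 ± 0.26 (SE) for B minus A (limma, adjusted p = 0.0308) and -1.28 ± 0.26 (SE) for C minus A (limma, adjusted p = 0.031), while C minus B was 0.10. The B minus A adjusted p (limma) was 0.156 and 0.279 without the induced and the uninduced array of B, and that of C minus A 0.189 and 0.133 without those of C. Without the intensity trend they were 0.0881 and 0.0835. Ddit4 encodes REDD1, an inhibitor of mTORC1 that also responds to hypoxia. Its signals were 4658 and 7044 in C, 5561 and 5968 in B and 7255 and 6073 in A, and the experiments overlapped; C minus B was -0.01 with a 95% interval of -0.48 to 0.47.

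On the synthesis side, Phgdh encodes the enzyme of the first step from a glycolytic intermediate towards serine. Its signal was 5283 induced and 4439 uninduced in C, against 2298 and 2404 in B and 4482 and 4913 in A. Both B arrays lay below all others. C minus B was 1.04 ± 0.17 (SE) (n = 2 arrays each; limma, adjusted p = 0.00781) and B minus A was -0.99 ± 0.17 (SE) (limma, adjusted p = 0.0226), while C minus A was 0.05. The other 3 Phgdh probe sets had the same lowest experiment. C minus B was 1.16 on 1454714_x_at (limma, adjusted p = 0.0048), 1.09 on 1426658_x_at (limma, adjusted p = 0.00885) and 0.51 on 1456584_x_at (limma, adjusted p = 0.138). All 4 carry the x suffix, which Affymetrix gives to probe sets that may also detect other transcripts, and 2 further probe sets annotated to Phgdh and a predicted gene were left out. The called Trib3 probe set, 1456225_x_at, carries the same suffix.

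Psat1 encodes the aminotransferase of the second step. On 1451064_a_at it read 3824 and 4176 in C, 2816 and 2693 in B and 5191 and 2042 in A, so that the A arrays were the highest and the lowest of the 6. On 1454607_s_at the signals were 2924 and 3406 in C, 2059 and 2505 in B and 4491 and 4308 in A, with A highest and both B arrays lowest. B minus A passed on this probe set, at -0.95 (limma, adjusted p = 0.0276), and on the first it was -0.24. C minus B was 0.53 and 0.47 on these probe sets (limma, adjusted p = 0.366 and 0.135). Without the induced or without the uninduced array of A the first estimate was the same, and limma's adjusted p was 0.000265 and 0.000199, the spread then coming from B and C alone. Psph encodes the phosphatase of the last step and read 1227 and 1055 in C, 1433 and 1388 in B and 1369 and 1143 in A. Its experiments did not differ past the threshold, C minus B being -0.31 with an interval of -0.75 to 0.14.

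Shmt2 encodes the mitochondrial enzyme that splits serine into glycine and a one-carbon unit. On 1455084_x_at it read 1719 and 1924 in C, 1469 and 1228 in B and 2802 and 1946 in A, lowest on both B arrays; C minus B was 0.43 (limma, adjusted p = 0.267). The next brightest probe set, 1426423_at, had 985 and 1025 in C, 783 and 603 in B and 1289 and 536 in A, and the dimmer 1455985_x_at and 1434204_x_at had C minus B estimates of -0.24 and 0.10. None of the 4 Shmt2 probe sets passed between C and B. Asns, which encodes asparagine synthetase, read 4071 and 3842 in C, 4163 and 4499 in B and 6496 and 3126 in A on 1451095_at. There the experiments overlapped, and C minus B was -0.13 with an interval of -0.74 to 0.48. On the other Asns probe set, 1433966_x_at, the signals were 2525 and 2741 in C, 3177 and 2559 in B and 5850.4 and 4990.0 in A. Both A arrays were then above the rest, with -0.92 for B minus A (limma, adjusted p = 0.0329) and -1.03 for C minus A (limma, adjusted p = 0.0188). C minus B was -0.12 on that probe set, so that Asns and Psph had negative C minus B estimates where Phgdh, Psat1 and Shmt2 had positive ones.

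**Figure D2:**
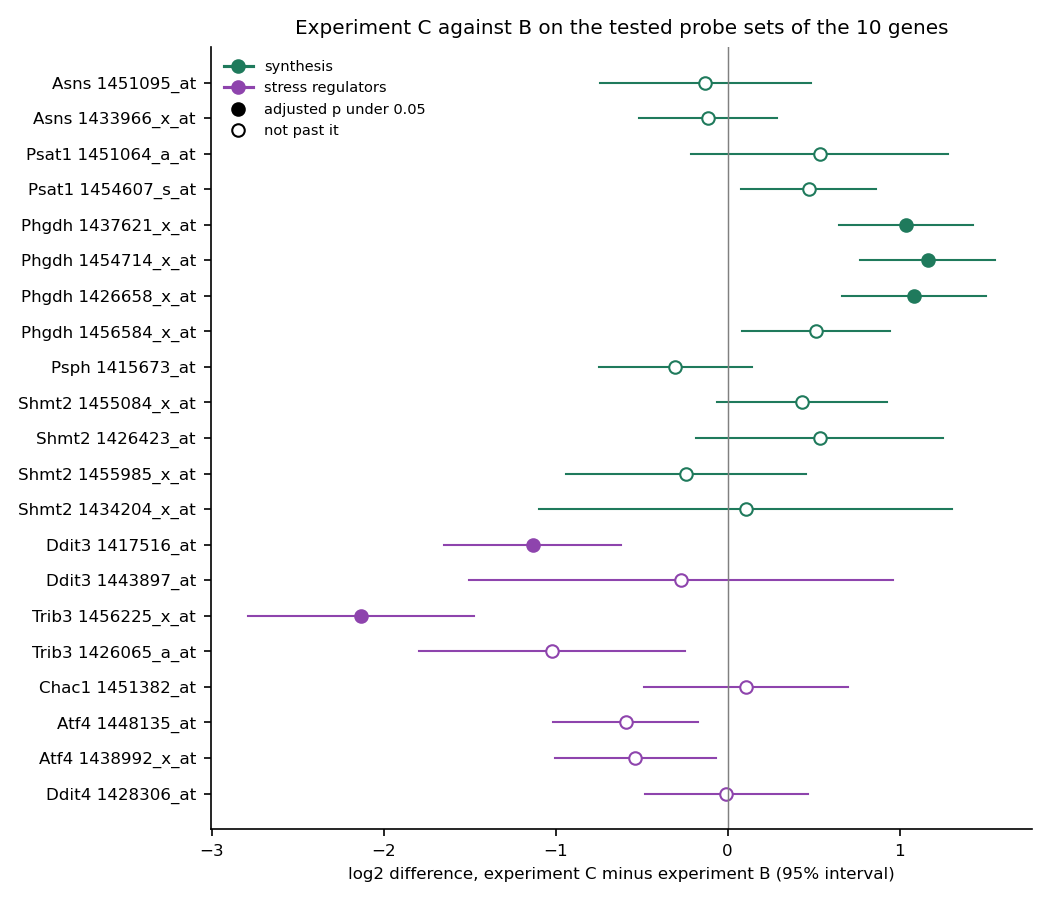
Log2 difference between experiments C and B (horizontal axis, with 95% intervals from limma) on the 21 tested probe sets, synthesis genes in green and regulators in purple, filled where the adjusted p is under 0.05. The 3 filled green points are probe sets of Phgdh, at 1.04 to 1.16, and the filled purple points are Ddit3 at -1.13 and Trib3 at -2.13.

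The same experiments also differed in cell-type markers. All 7 tested neural markers had higher estimates in C than in B, 6 of them past the threshold, against 5.78% of all tested genes, and 7 of 8 mesenchyme markers had lower ones, 6 of them past it, against 6.94%. The summed neural signal was 6734 and 7522 in C against 292 and 460 in B, and the mesenchyme sum 5757 and 5821 against 34879 and 37860. The summed endoderm and cardiac signals, like Trib3, were lowest in C. The endoderm sum was 952 and 933 in C, 15781 and 16969 in B and 9298 and 7985 in A, with 6 of 8 called lower for C minus B and 7 of 8 for C minus A, against 4.64% of tested genes in C minus A. The cardiac sum was 565 and 683 in C, 7284 and 9297 in B and 2638 and 2561 in A, with 4 and 3 of 8 called lower. The pluripotent sum was instead highest in C, at 3992 and 3871, with 1129 and 1480 in B and 1927 and 2074 in A. For C minus B, 3 of 8 pluripotent markers were called higher, against 5.78%. The erythroid sum was 1686 and 1704 in C, 26218 and 36100 in B and 3119 and 522 in A. Of 6 tested erythroid markers, 2 were called lower for C minus B, against 6.94%. Between B and A the endoderm markers were split, with 3 called higher, against 2.76% of tested genes, and 2 lower, against 2.37%. The lower ones were Foxa2 at -1.74 and Afp at -2.60, while Ttr, higher in B, read 10701 and 11110 of the B sums. The part of these markers in the differences of Phgdh, Trib3, Ddit3 and Chac1 was not tested. In the fit with no intensity trend, neither Phgdh call was kept. Its adjusted p (limma) was then 0.0699 for C minus B and 0.128 for B minus A. Without 1 array of B or C, the C minus B adjusted p for Ddit3 (limma) was 0.158 to 0.242, past the threshold in none of the 4 cases, while its estimate was -1.20 to -1.06. For Phgdh it was 0.103 and 0.06 when the B array left out was the induced and the uninduced one, and 0.153 when it was the induced array of C. The Phgdh B minus A adjusted p was 0.143 and 0.188 without the induced and the uninduced array of B. For Trib3, C minus A had 0.0578 without the uninduced array of C. On 1456225_x_at, the Trib3 C minus B estimate was -2.39 to -1.81 over all 13 alternatives. The second Trib3 probe set did not pass between C and B in the main fit (limma, adjusted p = 0.107).

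The gap between the roles summarises this on each array. It is the mean log2 level of the 5 synthesis genes minus that of the 5 regulators; its size depends on the probe sets, so that only its change between arrays is of use. The gap was 2.11 induced and 1.83 uninduced in C, 1.02 and 0.79 in B, and 1.33 and 0.80 in A. Both C arrays were above all others. C minus B came to 1.07, made of 0.31 for the synthesis mean and -0.75 for the regulator mean. The pooled SD between the induced and the uninduced array of an experiment was 0.26, which includes any difference with doxycycline. C minus A was 0.90, with -0.07 from the synthesis and -0.97 from the regulator mean. The means pool unlike genes. C minus B was -2.13 for Trib3, which is dim in C, -1.13 for Ddit3 and -0.59 for Atf4, but -0.01 for Ddit4 and 0.10 for Chac1. On the synthesis side it was 1.04 for Phgdh, 0.53 for Psat1 and 0.43 for Shmt2, but -0.13 for Asns and -0.31 for Psph. These means are given with no test, since the genes were chosen with earlier results known.

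**Figure D3:**
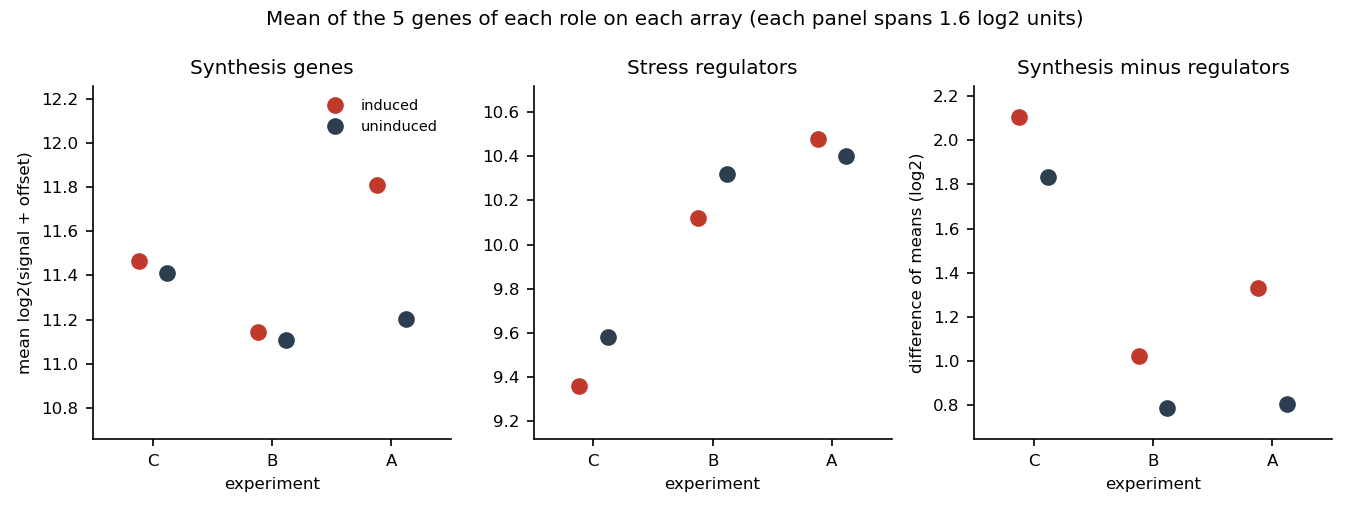
Mean log2 level of the 5 synthesis genes (left), of the 5 regulators (middle) and their difference (right) on each array, by experiment C, B and A, induced in red left of uninduced in dark blue; each panel spans the same number of log2 units. The difference is 2.11 and 1.83 in C and at most 1.33 elsewhere, and in each experiment the induced array is higher.

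The study set induced against uninduced embryoid bodies to find genes that respond to HOXB4. None of the 10 genes was called between induced and uninduced embryoid bodies (limma, 0.00% of tested genes called), and with the experiment as a replicate block the count was again 0 of 10. At an unadjusted p under 0.05 the count was 0 of 10 without the block, against 0.511% of tested probe sets, and 1 of 10, Ddit3, with it, against 3.94%. On the brightest tested probe set of each gene, all 5 synthesis genes had a positive estimate, from 0.02 for Phgdh to 0.43 for Psat1. Of the regulators, 4 of 5 had a negative one, Chac1 being the exception at 0.38. The sign was not shared by all probe sets: Psat1 1454607_s_at had -0.15 and Phgdh 1456584_x_at -0.21. The remaining tested probe sets of the synthesis genes had positive estimates. The median was 0.21 for the synthesis genes and -0.15 for the regulators, beside 0.02 over all tested genes. Of the 10, 3 had the same sign in all 3 experiments, against 26.1% of tested genes.

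Those 3 were Ddit3, Psph and Chac1. Ddit3 averaged 505 ± 185 in induced and 753 ± 307 in uninduced embryoid bodies (SD, n = 3 each), and the log2 difference was -0.53 in C, -0.64 in B and -0.46 in A. The fitted difference was -0.54 with a 95% interval of -1.46 to 0.37 (limma, adjusted p = 1). With the replicate block the interval was -0.97 to -0.12 (limma, unadjusted p = 0.0174, adjusted p = 0.93). Its dimmer probe set was lower in C and B but higher in A, by 0.29. Psph was higher by 0.21 in C, 0.05 in B and 0.26 in A, and Chac1 by 0.13 in C, 0.36 in B and 0.65 in A. Their intervals were -0.31 to 0.65 and -0.80 to 1.56 without the block, and -0.19 to 0.54 and -0.10 to 0.86 with it.

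The probe sets of a synthesis gene differed in how they set induced against uninduced. On Asns 1451095_at the induced array of A had 2.08 times the signal of the uninduced one, and on Psat1 1451064_a_at 2.54 times. The second probe set of each gene gave 1.17 and 1.04 times on the same arrays. Shmt2 likewise gave 2.41 times on 1426423_at but 1.44 times on 1455084_x_at, 1.09 times on 1455985_x_at and 0.83 times on 1434204_x_at. In C, larger ratios came from dim probe sets of Shmt2. There 1434204_x_at gave 2.89 times (183 against 63.3), the highest ratio of any synthesis probe set, and 1455985_x_at 1.74 times (255 against 146). The brighter Shmt2 1426423_at gave 1.30 times in B and 0.96 times in C. In C and B the ratios of both Asns and both Psat1 probe sets lay between 0.82 and 1.24. On the uninduced array of A the Actb control ratio was raised, as given above; the part of RNA quality in these ratios was not tested. With both arrays of A left out, the induced minus uninduced estimate was -0.014 for Asns and -0.031 for Psat1.

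**Figure D4:**
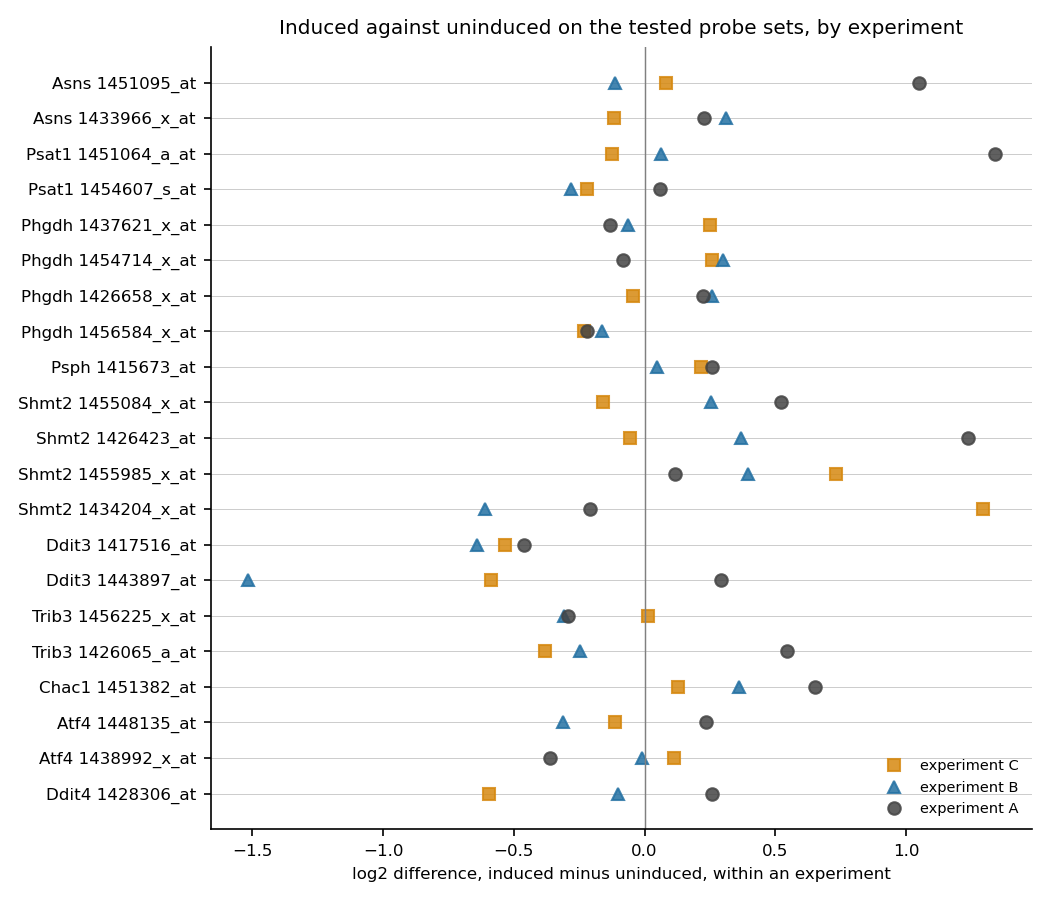
Log2 difference between the induced and the uninduced array (horizontal axis) within experiment C (squares), B (triangles) and A (circles) on the 21 tested probe sets. The circles of Asns 1451095_at, Psat1 1451064_a_at and Shmt2 1426423_at lie at 1.05, 1.34 and 1.24, and the square of the dim Shmt2 1434204_x_at at 1.30, while Ddit3 1417516_at lies left of 0 in all 3 experiments.

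The other regulators had no common direction. Trib3 differed by 0.01 in C, -0.31 in B and -0.29 in A, Atf4 by -0.11 in C, -0.31 in B and 0.23 in A and Ddit4 by -0.59 in C, -0.10 in B and 0.26 in A. The second probe set of Trib3 was higher in A, at 0.54, where the first was lower. Without the block, intervals for the fitted differences were -2.02 to 1.62 for Trib3, -0.65 to 0.52 for Atf4 and -0.62 to 0.32 for Ddit4. These also carry the differences between experiments. With the replicate block they were -0.73 to 0.34 for Trib3, -0.41 to 0.28 for Atf4 and -0.53 to 0.24 for Ddit4. The gap between synthesis genes and regulators was larger on the induced array in each experiment, by 0.27 in C, 0.24 in B and 0.53 in A, a mean of 0.35 ± 0.16 (SD, n = 3). In C and B it came mostly from the regulator mean, at -0.22 and -0.20, and in A from the synthesis mean, at 0.61. The synthesis mean uses the Asns and Psat1 probe sets whose ratios in A were 2.08 and 2.54. Their second probe sets gave 1.17 and 1.04.

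Further genes of the pathway were read from 7 lists, in which the same arrays serve every comparison. Of 11 tested ATF4 partners and other stress regulators, 4 were lower in C than in B past the threshold, against 6.94% of all tested genes, and 0 higher, with a median of -0.61 beside 0.07 over all tested genes. The 4 were Cebpb, a C/EBP partner of ATF4, at -1.49 (limma, adjusted p = 0.0182), Nfe2l2, which encodes the antioxidant regulator NRF2, at -1.29, the stress factor gene Atf3 at -1.20 and the growth factor gene Vegfa at -1.08. Of 14 tested genes of folding in the endoplasmic reticulum, 12 had lower estimates in C than in B and 2 passed, against the same 6.94%: Dnajb9, a chaperone partner gene, at -0.93 and Xbp1, a transcription factor of the unfolded protein response, at -0.70. The chaperone genes Hspa5 and Pdia6 were higher in B than in A, at 0.70 and 0.95 (limma, adjusted p = 0.0285 and 0.0415), against 2.76% of tested genes, and Sdf2l1 was higher in C than in A, at 1.21, against 2.77%. None of 6 tested genes for eIF2α kinases and phosphatase subunits passed in any comparison; the nearest, Ppp1r15a, which encodes the stress-induced eIF2α phosphatase subunit GADD34, Eif2ak4, for the amino acid sensing kinase GCN2, and Ppp1r15b had C minus B estimates of -0.62, -0.35 and 0.21.

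Uptake and enzyme genes gave another set of calls. Of 9 tested amino acid transporter genes, all 9 had a negative B minus A estimate, with a median of -0.52 beside -0.06 over all tested genes. Past the threshold were Slc7a5, a leucine transporter gene, at -1.57 (limma, adjusted p = 0.0127) and Slc7a3, a cationic amino acid transporter gene, at -1.17, which makes 2 of 9 against 2.37% of tested genes. Slc7a3 was also lower in C than in A, at -1.40, while Slc38a1, for a glutamine transporter, had -0.10 for B minus A. Among 13 aminoacyl-tRNA synthetase genes, 10 had a negative B minus A estimate and none passed in it; Vars (now Vars1), for valine, was higher in C than in B at 1.00 (limma, adjusted p = 0.0259). Aars (now Aars1), for alanine, passed only the F test and had -0.69 for B minus A, and Iars (now Iars1), for isoleucine, had -0.51. The share of all tested genes called higher in C than in B was 5.78%, against which 1 of 13 synthetase genes and 1 of 10 tested one-carbon genes passed. The one-carbon gene was Gldc, of the glycine cleavage system, at 1.20 (limma, adjusted p = 0.0133). The folate enzyme genes Mthfd2 and Shmt1 had 0.49 and 0.76 and did not pass. Among 8 tested genes of other amino acid synthesis, Oat, for ornithine aminotransferase, was lower in C than in B at -1.92 and higher in B than in A at 1.96, and the proline synthesis gene Aldh18a1 was lower in B than in A at -1.16; Cth, for the cysteine-making cystathionine γ-lyase, had 1.04 for C minus B and did not pass. Sesn2, which encodes a leucine sensor induced by ATF4, was lower in B than in A at -1.48 (limma, adjusted p = 0.0222). None of these lists had a member past the threshold between induced and uninduced embryoid bodies.

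The genes whose centred log2 profile over the 6 arrays lay nearest to the synthesis mean, by root mean square difference, were Ipp, Dhx8, Trmt11, Rpusd3 and Tgif1, at 0.04 to 0.08 log2 units on a profile spanning 0.70. For the regulator mean they were Arhgap27, Syf2, Amn1, Sh3yl1 and Son, at 0.06 to 0.11 on a profile spanning 1.12. With 6 arrays from 3 experiments, many genes can lie this near, and the values only describe these arrays.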

How the data were processed

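Total RNA of 3 induced and 3 uninduced samples of embryoid bodies was hybridised to 1 Affymetrix array each, per the labels. The deposited values are linear signal intensity per probe set, made by the authors with MAS5 per the submitters' processing notes; the sources used here do not give its version or settings, and no detection calls were used. After 64 control probe sets were left out of 45101, probe sets with a mean at or above the 40th percentile were tested (27022). Values were log2(signal + 18.8), the 20th percentile, and were fitted with limma 3.58.1 in R 4.3.3 (eBayes with intensity trend, two-sided, Benjamini-Hochberg over all tested probe sets, threshold 0.05). The fit was also run on simulated data. The simulated induction data held no differences between experiments, so they do not show how the fit without a block handles such differences. Induced was set against uninduced without a block, and the experiments against each other with doxycycline as an additive term. The labels give each array a replica letter, and arrays of one letter were taken as one experiment. Deviations of induced and uninduced arrays from their group means correlated at 0.45 to 0.67 within an experiment and -0.53 to -0.12 between experiments, so the arrays are paired. Alternatives changed the offset (1 and 50), the filter, the normalization, the trend, the covariates and the arrays used.

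Gene names come from the platform annotation (34945 probe sets with 1 gene, 932 with several, 9160 with none), and a gene is represented by its tested probe set of highest mean. The 10 genes and the lists were chosen with earlier results of these data known. Of each pathway list, the 3 genes with the smallest F test p are named; Cebpb, Atf3, Dnajb9 and Xbp1 were added after their values were seen. No detail beyond the replica letter says how the biological replicates were separated.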

Additional observations from a re-analysis of the deposited data

How the results depend on the processing

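Of the alternative values of single genes, 475 kept direction and side of the threshold, 18 kept direction and came to pass it, 18 kept direction and no longer passed, and 39 changed sign, 2 of which passed it in the new direction. The called differences kept their sign under all 13 alternatives, and the number of alternatives in which limma's adjusted p stayed past the threshold was 13 (highest adjusted p 0.039) for Trib3 and 9 (highest adjusted p 0.242) for Ddit3 between C and B, 9 (highest adjusted p 0.153) for Phgdh between C and B, 10 (highest adjusted p 0.188) for Phgdh and 10 (highest adjusted p 0.279) for Chac1 between B and A, and 12 (highest adjusted p 0.0578) for Trib3 and 10 (highest adjusted p 0.189) for Chac1 between C and A. Probe sets called over the experiments numbered 3138 by the F test, 2591 for C minus B, 1842 for C minus A and 1082 for B minus A. Without an intensity trend in limma they numbered 1186, 1686, 174 and 76, and with no filter C minus A gave 1089 and B minus A 702. Leaving out each array in turn gave 1502 to 13806 by the F test, 1018 to 8126 for C minus B, 264 to 9709 for C minus A and 139 to 9262 for B minus A; the highest counts came without the induced array of A, where the spread rests on B and C alone. The count for induced minus uninduced was 0 in every alternative, the replicate block included, and the block changed no call. With the mean of all tested probe sets of a gene, the gap between roles was 0.80 for C minus B and 0.19 for B minus A, against -0.16 with 1 probe set a gene. Leaving out each array gave 0.64 to 1.17 for its C minus A value and -0.43 to 0.10 for B minus A.

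The B minus A estimate of Asns and Psat1 passed in opposite directions depending on which A array was left out. Asns had 0.47 without the induced array (limma, adjusted p = 0.0129) and -0.59 without the uninduced one (limma, adjusted p = 0.00462), and Psat1 had 0.44 (limma, adjusted p = 0.0258) and -0.93 (limma, adjusted p = 4.98e-06). The other sign changes did not pass in the new direction. The induced minus uninduced estimate was -0.014 for Asns and -0.031 for Psat1 without experiment A, 0.060 for Atf4 without B, and -0.098 for Phgdh and 0.077 for Ddit4 without C. Quantile normalization gave -0.019 for Phgdh C minus A and 0.033 for Ddit4 C minus B. Leaving out each array in turn, induced minus uninduced ranged over -0.30 to 0.38 for Phgdh, -0.065 to 0.40 for Shmt2, -0.98 to 0.48 for Trib3, -0.13 to 0.76 for Chac1, -0.23 to 0.12 for Atf4 and -0.32 to 0.0018 for Ddit4. C minus B ranged over -0.47 to 0.21 for Asns, -0.084 to 0.29 for Chac1 and -0.34 to 0.33 for Ddit4. C minus A ranged over -0.72 to 0.34 for Asns, -0.39 to 0.98 for Psat1, -0.13 to 0.22 for Phgdh and -0.55 to 0.12 for Ddit4. B minus A ranged over -0.082 to 0.36 for Atf4 and -0.51 to 0.098 for Ddit4. The cause of these changes was not tested. Precision is limited by 2 arrays an experiment, and no detection calls show which dim signals lie above background. The Trib3 signal in C is dim, and its C minus B estimate was -2.39 with an offset of 1 and -1.81 with 50.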

Other observations

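Both Phgdh probe sets that are also annotated to a predicted gene, and so were left out above, had their lowest signals in experiment B. On 1426657_s_at, shared with Gm8096, the signals were 2155 and 2080.3 in C (induced, then uninduced), 1134 and 947 in B and 1896 and 1252 in A. On 1456471_x_at, shared with Gm6756, they were 1466 and 1496 in C, 832 and 811 in B and 1451 and 1798 in A.

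Between induced and uninduced embryoid bodies, 12 of the 14 endoplasmic reticulum folding genes had a lower estimate, with a median of -0.13 beside 0.02 over all tested genes, and 0 were called by limma. All 7 tested neural markers also had lower estimates and all 6 tested erythroid markers higher ones, again with 0 called. Only in A was the erythroid sum clearly higher on the induced array, at 3119 against 522. It was 26218 against 36100 in B and 1686 against 1704 in C. The uninduced array of A is the one with the raised Actb control ratio.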
